A study of Danio rerio with 24 samples.

Results

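The TRIM and fintrim genes are a family of ubiquitin ligase genes, and their expression was examined in ventricles of adult wild-type zebrafish. The members were all genes of the deposited table whose name begins with trim or ftr followed by a digit, whatever the case of the letters. Of 18987 genes in the table, 113 met this rule, and each gene identifier was kept where several carry 1 name. There were 49 fintrims (ftr genes) and 64 other members.

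The study asked what swimming exercise does to gene expression in the regenerating ventricle. The 24 samples are poly-A RNA-seq libraries of pooled ventricles, each from 3 or 4 fish, in 6 groups of 4 samples. Cryoinjured fish were exercised in a swim tunnel or kept non-exercised and were sampled at 7 and 14 days post injury (dpi), and sham-operated fish were non-exercised and were sampled at the same times. The labels call all fish wild-type. Each library mixes several hearts, so that differences between individual fish cannot be seen, and the sources used here do not say whether the pools of a group came from separate tanks.

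The values used are 1 number per gene, the authors' mean normalized count, which averages the counts of a gene over samples after division by a size factor for each sample. With no column for any single sample, the table allows no SD, no depth per sample and no test. No value for exercised against non-exercised ventricles is reported here, because the table's other numbers are the authors' own comparisons. Which of the samples entered the mean is not given in the sources used here. In RNA from whole ventricles, fewer cells of a type and less RNA per cell cannot be told apart. The counts are not divided by transcript length, so a difference between genes is a difference in reads and not in transcripts per cell. The mean counts of all genes summed to 11824275. This is a sum of scaled means over the listed genes and not the depth of any library.

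TRIM proteins carry a RING domain that promotes the transfer of ubiquitin, followed by B-box zinc fingers and a coiled coil. Most end in a domain that chooses the target. They tag proteins for destruction or change their activity, and members of the family are known for muscle protein turnover, gene regulation in the nucleus and defence against viruses. The fintrims are a large branch found in teleost fish, first described in trout as genes induced by viruses, and zebrafish has many copies of them.

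All 113 members had a mean count above 0, as did all but 9 of the 18987 genes listed. A count above 0 thus does not set the members apart, and most of their counts were low. Throughout, all genes means the genes listed, and genes without a row are not counted. The median member had a mean normalized count of 18.2, against 79.6 for the median of all genes. Only 24 members (21.2%) lay above the median of all genes, and 9 (7.96%) lay above the upper quartile of all genes, 266.1. In contrast, 56 members (49.6%) lay below the lower quartile, 17.3. The low medians were those of the fintrims (11.2), the trim35 genes (9.08) and the genes listed as TRIM14 (6.30). The 35 other trim genes had a median of 76.0, close to that of all genes. Of these 35, 17 (48.6%) lay above the median of all genes and 8 (22.9%) above the upper quartile. With a minimum mean count of 10, 70 members (61.9%) passed, against 15560 of all genes (82.0%), and 43 members fell below it. The members together held 0.0941% of the summed mean counts of all genes.

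**Figure D1:**
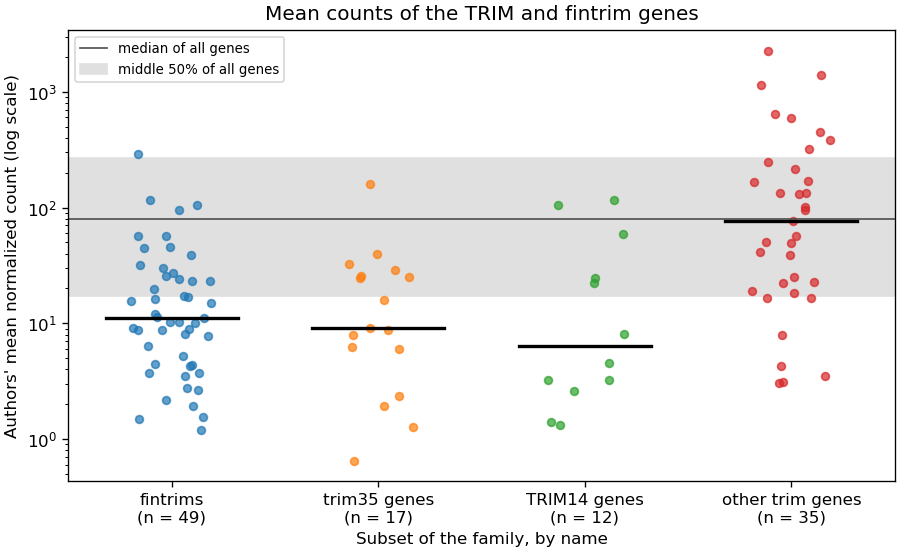
Authors' mean normalized count of each member on a log scale, with the members divided by name into fintrims (n = 49), trim35 genes (n = 17), TRIM14 genes (n = 12) and other trim genes (n = 35). Each point is 1 gene identifier, black bars are medians, the grey line is the median of all genes (79.6) and the grey band spans their lower to upper quartile. The medians of the first 3 subsets (11.2, 9.08 and 6.30) lie below that band, and that of the other trim genes (76.0) lies within it.

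A large share of the family's reads came from a few genes, most of them muscle genes. The 5 members with the highest counts held 54.3% of the family's summed mean count, and the 10 highest held 69.6%. The matching shares over all genes were not computed, so whether the family is more uneven than other genes is not known. The first 4 members belong to the muscle RING finger group, and trim3b is the fifth. Of the 10 highest members, 1 was a fintrim.

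The muscle RING finger genes encode the MuRF ligases, which in mammals sit at the sarcomere and bind titin. trim63 encodes MuRF1, a ligase that in mammals drives the breakdown of muscle proteins during atrophy, and trim55 encodes MuRF2, which in mammals associates with microtubules and the forming sarcomere. trim63a (ENSDARG00000028027) had a mean normalized count of 2274.6 and trim63b (ENSDARG00000086685) one of 1136.6. trim55b had a mean normalized count of 1397.6, and trim55a one of 643.3. Within each pair the reads were thus divided unequally, with 66.7% of the reads of both trim63 genes on trim63a and 31.5% of those of both trim55 genes on trim55a. The 4 genes lay at percentiles 96.6, 93.4, 94.5 and 88.6 of all genes, in the order trim63a, trim63b, trim55b and trim55a. trim101, also placed in this group, had a mean count of 3.04. The 5 genes of the group held 49.0% of the family's summed mean count. No listed gene carried the name trim54 (MuRF3), so it was not analysed here.

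Proteins of the TIF1 group act in the nucleus as co-regulators of transcription. trim33, whose loss in the zebrafish mutant moonshine blocks blood formation, had a mean normalized count of 248.7, and trim24 one of 166.6. Both lay above the median of all genes. trim33l had a count of 38.8. trim66, which in mammals is counted with the TIF1 proteins, was not on the list for this group and had 7.92. trim28 was not found by name among the listed genes and was not analysed here.

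The NHL group is named for the repeats at the end of the protein. trim3b and trim3a had mean normalized counts of 591.4 and 384.5, with 39.4% of the reads of this pair on trim3a. In rodents trim3 is known from neurons. trim71, the relative of worm lin-41 and a repressor of messenger RNAs in embryos and stem cells, had a count of 168.2, at percentile 66.0 of all genes. trim32, whose human counterpart is mutated in a limb-girdle muscular dystrophy, had 76.0, close to the median of all genes. trim2a, known from neurons in mice, had 49.4.

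In the neuron-type C-I group, whose proteins bind microtubules, trim9 had a count of 22.6 and trim36 one of 18.2. In mice trim9 acts in axon growth, and in frogs trim36 acts on microtubules of the early embryo. Neither reached the median of all genes. Of the MID genes, which are of the same type and fall outside the naming rule, mid2 (also known as trim1) had 453.4 and mid1 had 47.2. trim67, trim46a and trim46b were not found by name among the listed genes and were not analysed here. The members anchored in the membrane of the endoplasmic reticulum had 134.7 (trim13, which in mammals takes part in the removal of misfolded proteins) and 41.6 (trim59). trim45, whose protein carries a filamin-type repeat, had 50.1.

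Among the genes linked to interferon and virus defence, trim25, which in mammals activates the RNA sensor RIG-I, had a mean normalized count of 451.7, at percentile 84.0 of all genes. trim8b and trim8a, whose mammalian counterpart acts in cytokine and NF-kB signalling, had 322.8 and 213.7, with 39.8% of the reads of this pair on trim8a. These 3 genes all lay above the median of all genes. The 12 genes listed as TRIM14 had counts from 1.32 to 116.0 and a median of 6.30, and 2 of the 12 lay above the median of all genes. In mammals TRIM14 works beside the mitochondrial adaptor MAVS and has no RING domain. trim21 was not found by name among the listed genes and was not analysed here.

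**Figure D2:**
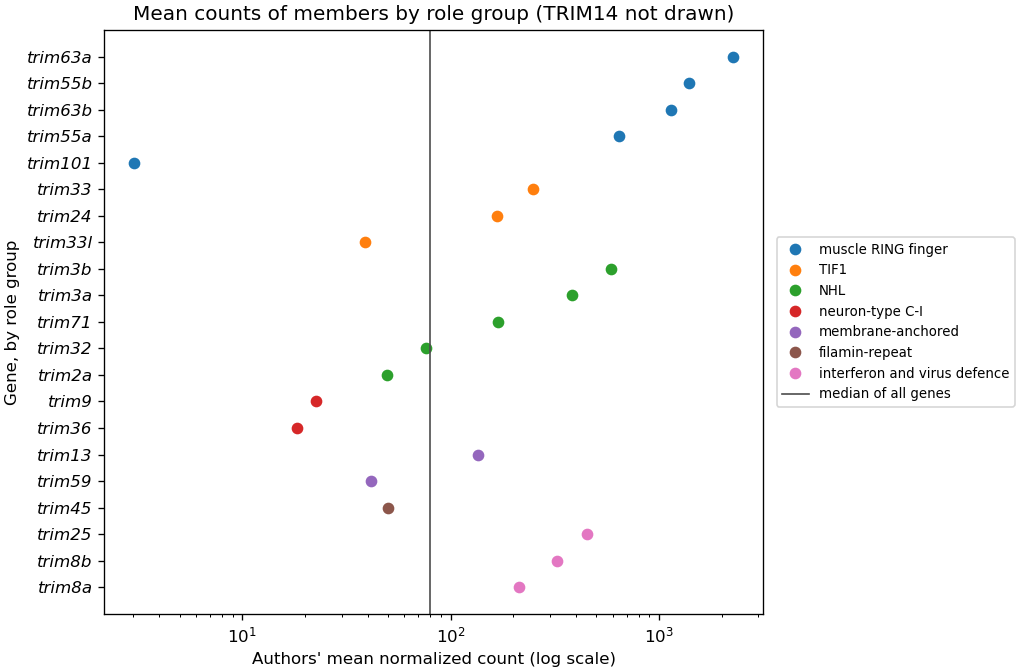
Authors' mean normalized count on a log scale (x axis) for the members of each role group (y axis, 1 gene per row, coloured by group) apart from the TRIM14 genes, which are not drawn, with the vertical line at the median of all genes, 79.6. The muscle genes trim63a, trim55b, trim63b and trim55a have the highest counts, from 2274.6 to 643.3, and trim101 of the same group the lowest drawn, 3.04.

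The trim genes outside these groups had intermediate or low counts. trim23, whose protein also holds a GTPase domain, had a mean count of 132.9. trim105 had 131.3. trim44, which in mammals carries a ubiquitin-binding zinc finger in place of the RING domain, had 100.5. All 3 lay above the median of all genes. trim37, a gene of centrosomes and peroxisomes in humans, had 57.0. trim65, which in mammals acts on the RNA sensor MDA5, had 25.3, and trim107 had 19.2. trim62, trim16 and trim110 were at the low end, with counts of 4.29, 3.50 and 3.13. In mammals trim16 takes part in the response to damaged lysosomes.

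The fintrims had a median mean count of 11.2, against 25.2 for the 64 other members. Those other members were mixed. Their medians were 9.08 for the 17 trim35 genes, 6.30 for the 12 TRIM14 genes and 76.0 for the 35 other trim genes. A low median was thus not particular to the fintrims. Of the fintrims, 4 (8.16%) lay above the median of all genes, against 20 (31.2%) of the other members. Below the lower quartile of all genes were 32 fintrims (65.3%) and 24 other members (37.5%). The latter were 10 trim35 genes (58.8%), 7 TRIM14 genes (58.3%) and 7 of the other trim genes (20.0%). These are counts of genes, which are not replicates, and the differences were not tested. In all, 27 fintrims reached a mean count of 10, and 22 did not. The fintrims held 11.7% of the family's summed mean count.

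Counts differed widely between the fintrims. ftr82 had the highest mean normalized count, 292.8, at percentile 76.7 of all genes, and no other fintrim lay above the upper quartile of all genes. The next were ftr67 with 115.7, ftr36 with 104.6 and ftr24 with 96.1, which also lay above the median of all genes. This gene listed as ftr36 (ENSDARG00000095678) has the later symbol ftr38. The later symbol ftr36 belongs to the gene listed as ftr34 (ENSDARG00000087057), which had 4.38. ftr93, 1 of 2 genes listed as ftr97 (ENSDARG00000055436), ftr90, ftr76, ftr14 and ftr96 completed the 10 highest, with counts of at most 56.8, the lowest being that of ftr96. These 10 genes held 67.8% of the summed count of the fintrims. The matching share over all genes was not computed, so whether this is particular to the fintrims is not known. The lowest fintrims were ftr29 with 1.55, ftr11 with 1.48 and ftr32 with 1.19. In the table, 45 of the 49 fintrims carry the description of human TRIM29, and 4 have none. The 3 genes listed as TRIM47 in capitals carry the same description and are counted here with the other members. Of these, ENSDARG00000067661 has the later symbol ftr80. How reads that match several copies were counted is not given in the sources used here. A low count of one copy and a high count of another are thus uncertain where the copies are near-identical. The same limit applies to the low medians of the fintrims, the trim35 genes and the TRIM14 genes, and its size was not tested.

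The trim35 genes are a second set with many copies. Of 17 gene identifiers, 8 reached a mean count of 10, and the median was 9.08. trim35-28 stood apart with a mean normalized count of 158.7. It was followed by trim35-40 with 39.8 and trim35-39 with 32.5, and trim35-28 alone lay above the median of all genes. trim35-21 had the lowest count of the family, 0.649, the only member below 1.

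Several names were carried by more than 1 gene identifier. Beside TRIM14 with 12, these were TRIM35 with 6, ftr97 with 2, and trim47 with 4 when the case of the letters is ignored. Of the TRIM14 genes, 5 reached a mean count of 10 and 7 did not, and the highest held 32.9% of their summed count. The TRIM14 genes with the highest counts were ENSDARG00000102593 with 116.0 and ENSDARG00000102835 with 106.1, followed by ENSDARG00000100690 with 59.5. The gene listed as trim47 in lower case (ENSDARG00000056678) had 95.8, against 22.3, 16.5 and 16.5 for the genes listed as TRIM47 in capitals. The lower-case gene thus held 63.4% of the reads of that name. The genes listed as ftr97 had 56.7 and 8.69. The first of these has the later symbol ftr78, and only the second is still named ftr97.

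Names of these genes differ between annotations, which bears on what the rule gathers. A later table of gene names gave a symbol for 104 of the 113 identifiers. The symbol was the same as in the deposited table for 75, and for 6 it lacked only the letter of the paralog. For 11 genes it was another trim or ftr name. For 12 it was a clone-based placeholder name, which says nothing of the family, and 9 of these are TRIM14 genes and 3 are trim35 genes. None of the TRIM14 identifiers kept that name, as the other 3 had no entry. Whether these genes encode TRIM proteins was not tested, since no protein sequence was used here. Without the TRIM14 and TRIM35 genes and others written in capitals, the 92 members with lower-case names had a median mean count of 21.3, against 18.2 for all 113.

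Some members are neighbours in the genome. By symbol, 88 members were placed among the protein-coding genes of the later assembly GRCz12tu. The later symbol was used where the assembly holds it, and otherwise the name in the deposited table. The pair of ftr43 and ftr50 rests on the deposited name of ftr50, whose later symbol is ftr50.2. Likewise, the pair of trim47 and trim3b rests on the deposited name of trim3b, whose later symbol is TRIM3. Of the 39 fintrims placed, 21 lay next to another placed member, with no other protein-coding gene between, and so did 1 of 16 trim35 genes and 2 of 32 of the other trim genes. They formed 9 runs, of which 5 were pairs and the longest held 5 genes. Since only members with a mean count are placed, other fintrims of the assembly can break a run. Counts differed between neighbours. In the run of ftr76, ftr88, ftr73, ftr72 and ftr91 the mean counts were 44.9, 6.42, 16.3, 27.0 and 8.76. ftr82 lies next to ftr83, with mean counts of 292.8 and 11.4, and the gene listed as ftr36 lies next to that listed as ftr29, with 104.6 and 1.55. Within the run of ftr22, ftr23 and ftr24 the counts were 7.75, 23.3 and 96.1. The median mean count of placed fintrims was 11.4 for those beside another member and 10.8 for those alone.

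**Figure D3:**
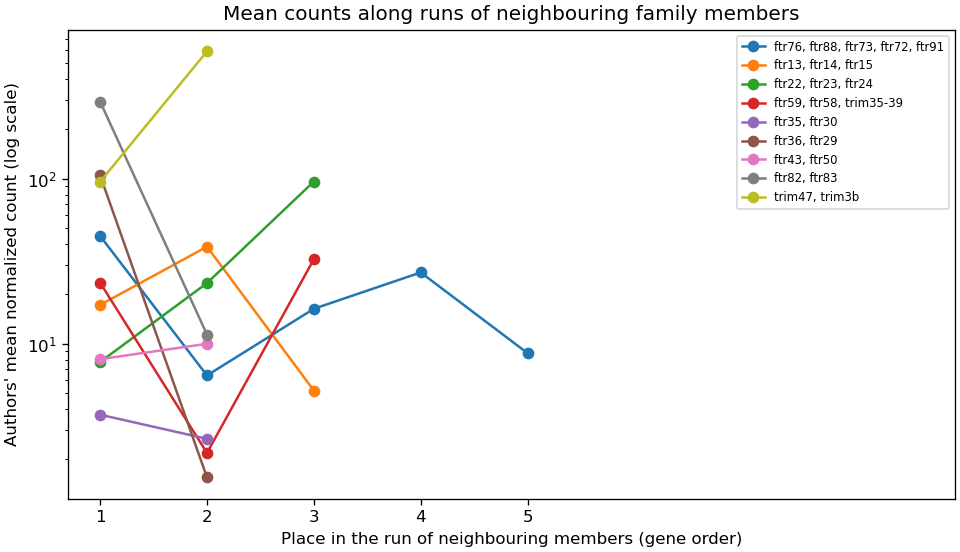
Authors' mean normalized count on a log scale (y axis) against place in each of the 9 runs of neighbouring members (x axis, gene order in the assembly GRCz12tu), with 1 line per run and genes named in order in the key. Within the pair of ftr82 and ftr83 the counts are 292.8 and 11.4, and within the longest run, of 5 fintrims, they lie between 6.42 and 44.9.

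As a check on the tissue, markers of heart muscle cells, some of them shared by atrium and ventricle, had mean counts from 25667 (nppa) to 163295 (myl7), all 6 of those found above percentile 99. The ventricular myosin vmhc had 37309, and the atrial myosin myh6 had 3281, although atria were removed at dissection. Of the epicardium and fibroblast markers, the matrix genes were high too, with 12777 for col1a1a, 11587 for col1a2 and 4010 for postnb. On the same list tcf21 and tbx18 had only 211.8 and 250.2. Endothelial markers ran from 1017 (fli1a) to 3550 (cdh5), and haemoglobin hbaa1 had 25133. Among smooth muscle markers tagln had 1749, acta2 had 421.7 and the gene listed as ACTA2 in capitals had 13.7. The macrophage markers mpeg1.1 and csf1ra had 234.9 and 247.9, whereas the genes listed as mfap4 or MFAP4 had from 2.49 to 97.2. Of these 14 macrophage genes, 3 lay above the median of all genes. Markers of neutrophils (16.3 for mpx, 43.2 for lyz), lymphocytes (7.28 for lck) and neurons (10.5 for snap25a) were low. The share of these cells in the reads of any family member was not tested.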

How the data were processed

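The authors isolated RNA from pooled ventricles, made poly-A libraries, sequenced them on an Illumina instrument and aligned the reads to the zebrafish genome GRCz10. The submitters' processing notes name TopHat2 2.1.0, HTSeq 0.6.0 and DESeq2, and the counting options are not given in the sources used here. The deposited table gives for each gene a mean of normalized counts, treated here as a signal that is never negative and not divided by length. Its 7 other numeric columns hold the authors' own comparisons (log2 fold changes, their standard error, statistic, p-values and fold changes at 7 and 14 dpi) and were not used. The table has no counts per sample, so the planned edgeR comparison of exercised with non-exercised ventricles was not run.

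Members were found by name, and the mean counts were ranked among all 18987 genes (Python 3.11.15, pandas 2.3.3, numpy 2.4.6). A minimum mean count of 10 defined members above a low level. Symbols came from a later table of gene names and the order of genes from RefSeq on GRCz12tu, whose coordinates were used only to sort the genes. The named genes are the members of the role groups, the 10 highest members, the 10 highest fintrims and every name with several identifiers. The remaining trim genes, the highest and lowest trim35 genes, the lowest fintrims and the neighbouring genes were named after their values were seen. The ranking and neighbour steps were tested on simulated data. Lists and members were chosen with earlier results of these data known.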

Additional observations from a re-analysis of the deposited data

How the results depend on the processing

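The table gives 1 mean per gene, so leaving out a replicate, another normalization and a test were not possible. No paired analysis was possible because the table has no column for any sample. Values per 1000 coding bases and protein features were not computed, as no coding lengths or proteins were used here. With a minimum mean count of 1, 112 members and 49 fintrims passed, and with a minimum of 50, 30 members and 6 fintrims, against 70 and 27 with a minimum of 10. Of all 18987 genes, 196 fell below 1. How many of all genes reach 50 was not computed, but their median, 79.6, lies above that minimum. The median mean count of members was 39.3 among those that reached 10, 23.3 with identifiers of 1 name summed and 21.3 with lower-case names only, against 18.2. For fintrims that reached 10 it was 23.9, against 11.2. The share held by the 5 highest members was 47.7% without trim63a, against 54.3%. Among genes that reached 10, 17 of 70 members (24.3%) lay above the median, 121.3, against 24 of 113 (21.2%) over all genes. The low counts limit the order of the 43 members below 10, and without an SD no neighbouring values in the order can be told apart.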

Other observations

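The E2 enzymes carry the ubiquitin whose transfer to targets RING ligases promote. They were listed together with the E2 variants ube2v1 and ube2v2, which are inactive themselves and act as partners of ube2n. All of the 10 found of 11 names lay above the median of all genes, with mean normalized counts from 133.8 (ube2d1a) to 1398 (ube2v2). Among other ligases known from muscle, fbxo32, the ligase of the mammalian atrophy response beside MuRF1, had 306.4, stub1 had 311.3, mib1 had 397.8 and fbxo25 had 130.2. The MID genes, relatives of the TRIM genes under another name, had 47.2 (mid1) and 453.4 (mid2).

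The genes of virus sensing and interferon response spanned a wide range, with 5 of 13 found above the median of all genes. The transcription factors stat1a and stat2 had mean normalized counts of 1889 and 1201, whereas stat1b, irf7 and irf3 had 64.9, 72.3 and 27.6. The adaptor mavs had 643.5. The interferon-induced genes mxa, rsad2 and isg15 had 31.1, 27.4 and 78.8, and the sensors ifih1 and dhx58 had 109.0 and 63.9. The lowest was tmem173, with 7.58.

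A single gene outside the naming rule carries a family symbol in the later table of names. It is listed as CU929225.1 (ENSDARG00000060688), its later symbol is trim69, and its mean normalized count was 169.9, at percentile 66.2 of all genes.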
